A study of Glycine max with 12 samples.

Results

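Seed coats of the Clark defective isoline (CD) were set against those of the Clark standard isoline (CS) at a fresh seed weight of 400–500 mg. The members are the Glyma gene models of soybean, taken from the table of this pair without regard to any measured value. Of 78773 models, 78720 entered and 53 neighbouring models on chromosome 13, Glyma13g11810 to Glyma13g12220, were left out. A model was called expressed when it had at least 5 RPKM (hits per kilobase of model, scaled to the total hits of the library) in CD or in CS. This held for 23959 models, and the others were not compared. Both isolines carry the pigment alleles i R T and have black seed. CD also carries the net pattern mutation, in an unknown gene or set of genes, which cracks the seed coat and was backcrossed into Clark, whereas CS has an intact coat. The series holds the same comparison at 50–100 and 100–200 mg, and at all 3 stages in the yellow seeded Harosoy isolines (HD, defective, and HS, standard, both I r t), as 12 libraries of which each stands for 1 line at 1 stage. Plants grew in a greenhouse, and seeds were grouped by weight, so CD and CS seeds of equal weight need not be of equal age. An isoline made by backcrossing can keep other donor segments beside the one selected for, and each isoline is a single line.

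The soybean seed coat is maternal tissue that encloses the embryo. While the seed fills, it unloads sugars and amino acids for the embryo, deposits pigment in its outer layer, and expands with the embryo inside it through synthesis and loosening of its cell walls. Proline-rich and glycine-rich proteins are structural proteins of these walls, and proteases, expansins and glycosidases act on wall proteins and polysaccharides.

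CD had 47.5 M and CS 77.2 M hits on the models, in a range of 47.5 to 113 M over the 12 libraries, so that 5 RPKM at the median model length of 1171 bases stood for 278 hits in CD and 452 in CS. With 1 library on each side, no ratio within the pair has a replicate error, and no test was made. The 95% intervals printed with ratios are exact conditional binomial intervals from the hits and cover counting error only. As reads could align to up to 25 models, splice models of the same locus share hits, as do close paralogs. The seed coat marker PRP2 (Glyma09g12260.1) stood at 3292 RPKM in CD and 4584 RPKM in CS. In whole seed coats, fewer cells of a type and less RNA per cell cannot be told apart.

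Most of the transcriptome lay close to equality between the isolines. The median log2((CD + 1)/(CS + 1)) over the 23959 expressed models was 0.00, with 5th and 95th percentiles of -0.54 and 0.49, and 90.8% of the models lay within 1.5-fold. At least 2-fold higher in CD were 268 models, 1.12% of those expressed, in 222 loci. At least 2-fold lower in CD were 470 models, 1.96%, in 371 loci, so that 3.08% differed by this measure either way. In the other pairs, over the models expressed there, the share differing either way was 3.74% for Clark at 50–100 mg, made up of 2.71% above 2-fold and 1.03% below in CD. It was 4.63% for Clark at 100–200 mg (3.04% above, 1.59% below). The Harosoy pairs gave 0.362% in the youngest seed coats (0.0884% above, 0.274% below in HD), 14.3% at 100–200 mg (5.79% above, 8.51% below) and 9.44% at 400–500 mg (4.77% above, 4.67% below). Ratios of at least 10-fold were found for 12 models higher in CD and 37 lower in CD. The counting interval of every one of these 738 ratios excluded 1, which their choice at 2-fold and 5 RPKM made nearly certain. The interval lay wholly past 2-fold for 197 of the higher and 340 of the lower models.

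**Figure D1:**
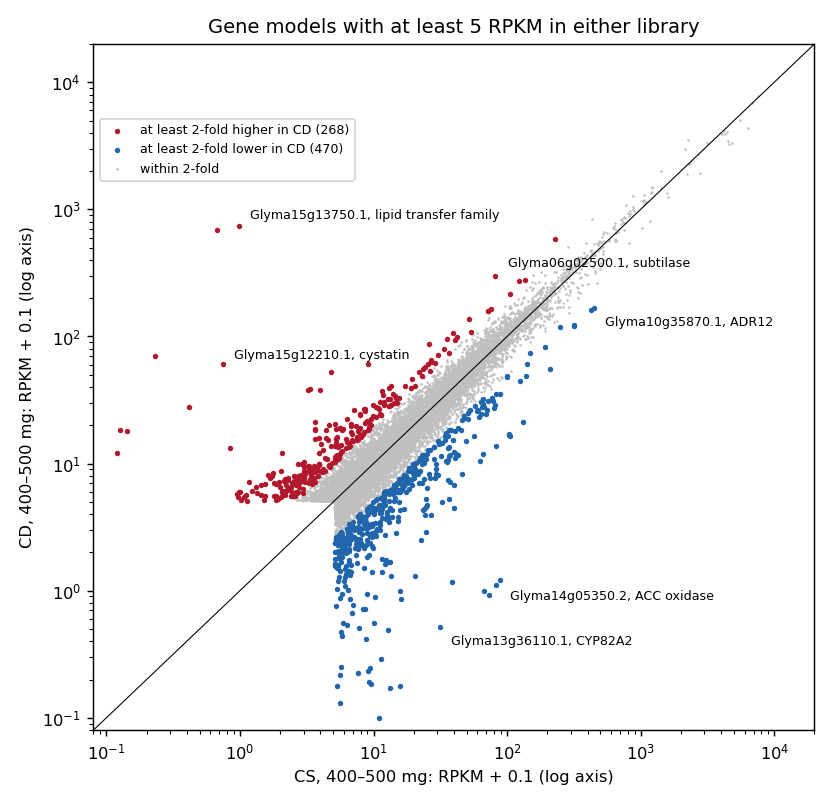
RPKM of each expressed gene model in CD (vertical axis) against CS (horizontal axis) at 400–500 mg, both log axes after adding 0.1 RPKM. Red points are the 268 models at least 2-fold higher in CD, blue points the 470 models at least 2-fold lower, grey points the rest, and the line marks equality. Most called models lie below 50 RPKM.

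Most called models were weakly expressed, as were most models of the seed coat. Both libraries were under 50 RPKM for 236 (88.1%) of the higher, 422 (89.8%) of the lower and 89.1% of all expressed models, and 13 higher and 16 lower models reached 100 RPKM in a library. With a mean below 5 RPKM, 5.99% of 1101 models were higher and 12.1% lower in CD. These models had to reach 5 RPKM in 1 library, so the filter itself made them unequal. The shares were 0.917% and 1.70% with a mean of 5 to 10 RPKM. With a mean of 10 to 50 RPKM, 0.864% of the models were higher and 1.39% lower in CD, and with a mean of 200 RPKM or more 1.37% each way, or 4 higher and 4 lower of 291. The median log2 ratio was 0.12 for models of 500 to 1000 bases and -0.11 for models of 2000 bases or more, and the part of model length in the ratios was not tested.

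The most abundant transcripts stayed within 2-fold. Glyma07g28610.1, a glycine-rich protein, had 7743 RPKM in CD and 7605 RPKM in CS, and a defensin-like protein, Glyma13g35320.1, had 5086 RPKM in CD and 5589 RPKM in CS. Another glycine-rich protein, Glyma02g42630.1, had 4368 RPKM in CD against 6358 RPKM in CS. A peroxidase, Glyma17g01720.1, had 3515 RPKM in CD against 2252 RPKM in CS. None of the 10 models with the highest mean RPKM reached a 2-fold ratio. Next to the threshold on the higher side, Glyma17g07450.1 (29.6 RPKM in CD, 14.8 in CS) lay just inside it and Glyma05g24730.1 (90.6 RPKM in CD, 45.3 in CS) just outside. On the lower side, splice models of the same locus fell on either side of it, Glyma05g27200.2 inside with 26.3 RPKM in CD and 52.8 RPKM in CS, and Glyma05g27200.1 outside with 30.7 RPKM in CD and 61.4 RPKM in CS.

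By log2 ratio with 1 RPKM added to both values, which ranks weak models lower than the plain ratio does, the models furthest towards CD were 3 neighbours on chromosome 15 that the study annotates as a protease inhibitor, seed storage and lipid transfer family, small secreted proteins of which lipid transfer proteins are the best known. Glyma15g13750.1 had 736 RPKM in CD and 0.886 RPKM in CS, a ratio of 830.1 (629 to 1119). Glyma15g13740.1 had 691 RPKM in CD and 0.576 RPKM in CS, a ratio of 1200.2 (739 to 2100.5), and Glyma15g13770.1 had 69.8 RPKM in CD and 0.131 RPKM in CS. The transcripts were present in CS earlier. At 100–200 mg, Glyma15g13750.1 had 86.8 RPKM in CD and 117.4 RPKM in CS, and 2.55 RPKM in HD and 36.8 RPKM in HS. At 50–100 mg none of the 4 lines exceeded 0.356 RPKM, and at 400–500 mg the Harosoy libraries had 0.234 RPKM (HD) and 1.08 RPKM (HS). The 400–500 mg CD library was therefore the highest of the 12 by over 5-fold for Glyma15g13740.1 and Glyma15g13750.1.

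A cysteine proteinase inhibitor, Glyma15g12210.1, showed another pattern. It had 57.3, 53.0 and 60.3 RPKM in CD at the 3 stages, against 2.62, 5.55 and 0.648 RPKM in CS, and lay between 4.96 and 27.3 RPKM in the 6 Harosoy libraries. CS was thus low at every stage, and the ratio at 400–500 mg was 93.1 (68.4 to 130). A proline-rich protein annotated after an Arabidopsis gene, Glyma15g23790.1, had 18.3 RPKM in CD and 0.0273 RPKM in CS, where only 2 hits were found (ratio 670, interval 185 to 5544), and it had 31.2 RPKM in CD and 23.8 RPKM in CS at 100–200 mg. Of the unannotated models, Glyma07g28940.1 had 37.9 RPKM in CD and 3.85 RPKM in CS, after 1365 RPKM in CD and 1418 RPKM in CS at 100–200 mg.

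In the opposite direction, the models with the largest log2 ratios on the same scale encode ACC oxidase, the last enzyme of ethylene synthesis. Glyma14g05350.2, a splice model of a locus so annotated, had 1.11 RPKM in CD and 87.9 RPKM in CS, 78.9-fold lower (61.1 to 104). Its neighbour Glyma14g05360.1 had 0.889 RPKM in CD and 67.4 RPKM in CS. Glyma02g43600.1 had 1.07 RPKM in CD and 38.8 RPKM in CS, and Glyma02g43580.1 had 0.756 RPKM in CD and 15.8 RPKM in CS. These models were near silent everywhere but in CS at 400–500 mg: Glyma14g05360.1 lay between 0.0371 and 0.889 RPKM in the other 11 libraries. A second set of ACC oxidase models was expressed in more libraries. Glyma02g43560.1 had 21 RPKM in CD and 131 RPKM in CS at 400–500 mg, and 6.46 RPKM in HD and 35 RPKM in HS. At 100–200 mg it had 32.9 RPKM in CD and 29.2 RPKM in CS, and at 50–100 mg 52.2 RPKM in CD and 9.37 RPKM in CS, so the Clark isolines stood in the other order at the first stage. Of the 10 ACC oxidase models annotated by the study, all expressed here, 9 were at least 2-fold lower in CD and none higher, with a median log2 ratio of -2.53, and the 1 model listed only for other pairs had -0.60. Ethylene-responsive transcription factors, 12 expressed of 13 annotated, had 4 higher and 5 lower members, and the 3 listed only for other pairs had a median of 0.11. The highest of them, Glyma13g34920.1, had 99.5 RPKM in CD and 41.9 RPKM in CS, and Glyma10g00980.1 had 0.337 RPKM in CD and 5.71 RPKM in CS.

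**Figure D2:**
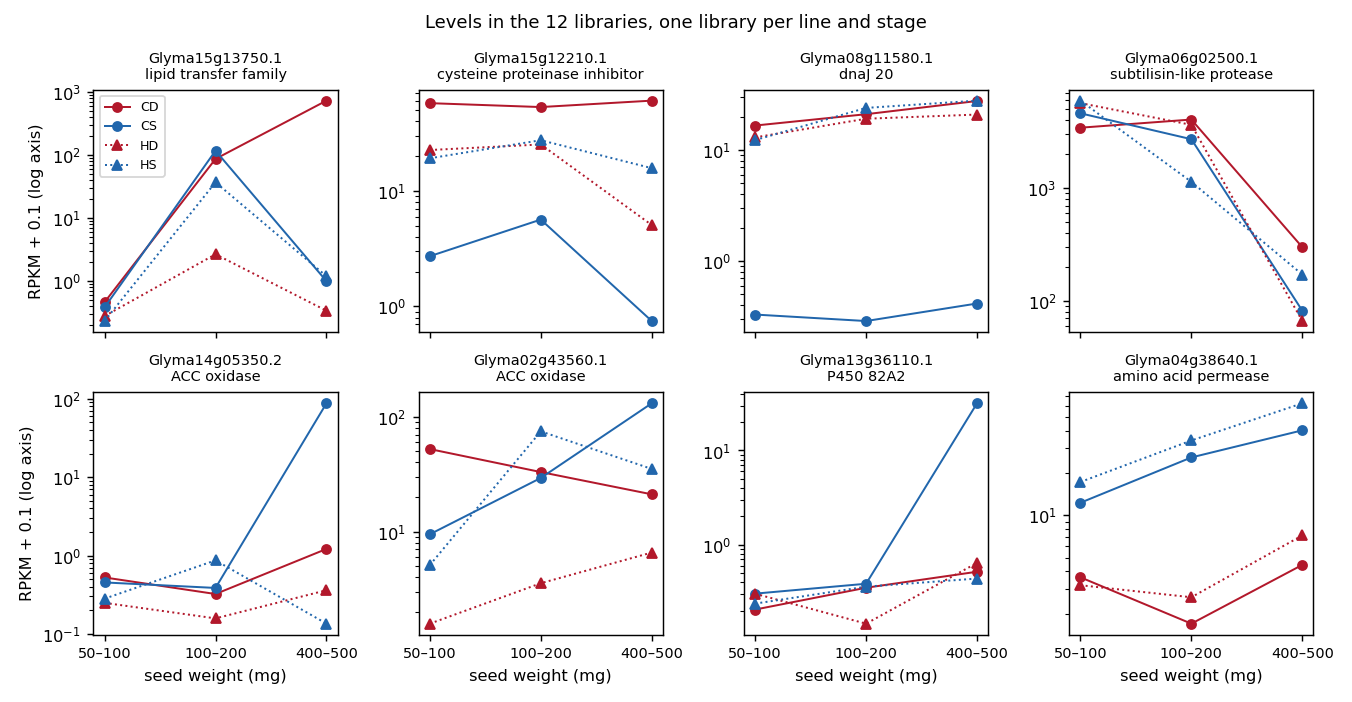
RPKM + 0.1 (log axis) of 8 models against seed weight stage, 1 library per point. Red is defective and blue standard, circles with solid lines are Clark and triangles with dotted lines Harosoy. For the ACC oxidase Glyma14g05350.2 and the cytochrome P450 Glyma13g36110.1 only CS at 400–500 mg stands high, whereas for the dnaJ chaperone Glyma08g11580.1 CS alone stands low at all 3 stages.

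Cytochrome P450 enzymes, which oxidise many secondary metabolites, included 2 further models of the same kind. Glyma13g36110.1 had 0.417 RPKM in CD and 31.6 RPKM in CS, 75.7-fold lower (54.4 to 109), and Glyma15g26370.1 had 0.188 RPKM in CD and 11.3 RPKM in CS. The other 10 libraries did not exceed 0.542 RPKM for the first and 0.294 RPKM for the second. Osmotin-like proteins, pathogenesis-related proteins of the thaumatin family, were low in CD as well: Glyma11g02770.1 had 1.21 RPKM in CD and 20.2 RPKM in CS, and Glyma01g42660.1 had 0.389 RPKM in CD and 12.6 RPKM in CS, with 3.74 RPKM in HD and 0.132 RPKM in HS. Among the models of unknown function, Glyma17g18230.1 had 0.0773 RPKM in CD and 15.6 RPKM in CS, and was not above 0.235 RPKM in any other library. Glyma09g26670.1 was at 0 in CD and had 10.9 RPKM in CS, at least 161-fold lower when CD is set to a floor of 3 hits. The CS libraries had 2.22, 7.43 and 10.9 RPKM at the 3 stages, and no library of the other lines exceeded 0.0273 RPKM.

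Set against all 12 libraries, many of the lower models were CS peaks. Levels were compared here with 1 RPKM added to every value, which understates the lead of weak models. On that scale, CS at 400–500 mg exceeded each of the other 11 libraries at least 2-fold in 111 (23.6%) of the 470 lower models. It did so at least 5-fold in 21 models of 17 loci, and at least 10-fold in 7 models of 5 loci. Those past 5-fold also included the beta-glucosidases Glyma11g13850.1 (0.316 RPKM in CD, 8.75 in CS) and Glyma11g13820.1 (1.53 RPKM in CD, 12.1 in CS), a multicopper oxidase, Glyma03g15800.1 (0.148 RPKM in CD, 9.34 in CS), and an isoflavone hydroxylase, Glyma11g05530.1 (0.453 RPKM in CD, 9.92 in CS). On the same scale, CD at 400–500 mg exceeded all other libraries at least 2-fold in 4 (1.49%) of the 268 higher models. CS was the highest of the 12 libraries in 48.5% of the lower models and in 10.6% of all expressed models, and CD the highest in 16.8% of the higher models and in 12.6% of all. Since each of these libraries is 1 of the sides that chose the models, these shares are descriptions. Among the higher models, the CS level was nearer than the CD level to that of HS at 400–500 mg in 72.8%, against 63.4% of all expressed models. Among the lower models, the CD level was the nearer one in 68.3%, against 36.6% of all.

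Gene groups were formed by keywords in the annotation that the study gave to models it listed for any pair. The study chose 195 of the higher and 332 of the lower models from this very pair, so the counts of these groups are not independent evidence of their direction. The medians of the members that it listed only for other pairs are given beside them. Such members were not selected on this pair, so nearly all lie within 2-fold by that choice. Their medians are thereby drawn towards 0 and cannot check a group's direction either. The background is 1.12% higher and 1.96% lower with a median of 0.00.

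Proteases, which here are subtilisin-like proteases, serine carboxypeptidases and aspartic proteases, had 22 expressed members of 26. Of these 16 were higher and 3 lower in CD, with a median log2 ratio of 1.30, and the 3 members listed only for other pairs had a median of 0.34. The subtilisin-like protease Glyma06g02500.1 had 299 RPKM in CD and 81.7 RPKM in CS (ratio 3.66, 3.58 to 3.74). It had fallen steeply in both isolines, with 3430 and 4051 RPKM in CD and 4602 and 2712 RPKM in CS at the earlier stages. The serine carboxypeptidases Glyma09g36080.1 (52.1 RPKM in CD, 4.73 in CS) and Glyma12g01260.1 (38.8 RPKM in CD, 3.25 in CS) followed the same course. Glyma12g01260.1 had 233 and 267 RPKM in CD and 184 and 103 RPKM in CS at the earlier stages. In HS, 14 of the 16 higher proteases fell between 50–100 and 400–500 mg, with a median log2 change of -3.32. As the background for this and the like counts below, 58.7% of all expressed models rose in HS over that step. The share that rose was 28.0% of all models higher in CD and 66.2% of all those lower in CD.

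Histones, which package DNA, and tubulins, which form microtubules, had 14 expressed members of 19, with 10 higher and none lower in CD. Their median was 1.11, and 0.79 in the 4 members listed only for other pairs. The alpha tubulin Glyma20g27280.1 had 33.0 RPKM in CD and 15.3 RPKM in CS, and the beta tubulin Glyma14g40380.1 had 9.85 RPKM in CD and 2.83 RPKM in CS. All 10 fell in HS between 50–100 and 400–500 mg, with a median log2 change of -2.71.

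Among wall proteins, 16 of 21 proline-rich, extensin and hydroxyproline-rich models were expressed, with 7 higher and 1 lower in CD and a median of 0.20, against -0.44 in the 8 members listed only for other pairs. The higher members were the minor ones. An extensin family model, Glyma07g31770.1, had 60.1 RPKM in CD and 8.98 RPKM in CS, a hydroxyproline-rich glycoprotein model, Glyma01g02360.1, had 13.2 RPKM in CD and 0.746 RPKM in CS, and a proline-rich model, Glyma14g14220.1, had 18.2 RPKM in CD and 4.34 RPKM in CS. The abundant members lay on the other side of equality: PRP2 had a log2 ratio of -0.48 and its neighbour Glyma09g12250.1 (1923 RPKM in CD, 2771 in CS) one of -0.53. PRP1 (Glyma09g12200.1), which stood at 8989 RPKM in CD and 12890 RPKM in CS at 50–100 mg, had 12.2 RPKM in CD and 39.9 RPKM in CS at this stage and was the lower member. Fasciclin-like and arabinogalactan proteins, cell surface glycoproteins, had 10 expressed members of 23, with 3 higher and none lower and a median of 0.79, against 0.71 in the 7 members listed only for other pairs. Expansins, which loosen walls, had 2 higher and none lower of 7 expressed, with a median of 0.12 in the 5 listed only for other pairs. Pectin enzymes and inhibitors had 2 higher and 3 lower of 22 expressed (0.30 in 17 such models), and xyloglucan, xylosidase and cellulose synthase-like enzymes 2 higher and 4 lower of 36 (-0.04 in 30). Glycine-rich proteins had 1 higher and 2 lower of 10 (-0.26 in 7).

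**Figure D3:**
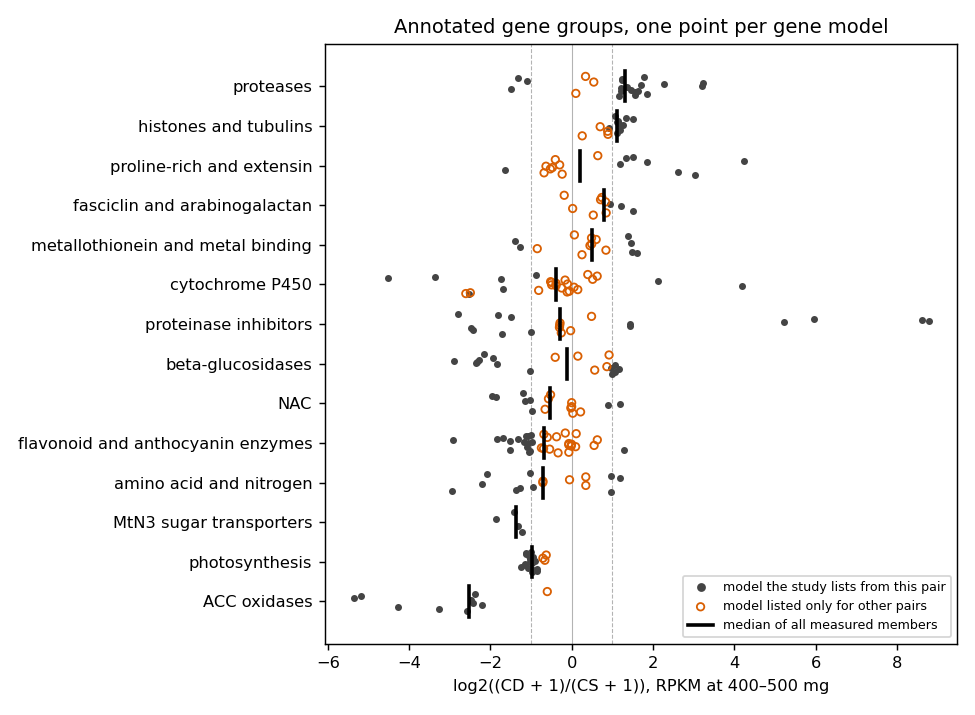
log2((CD + 1)/(CS + 1)) of RPKM at 400–500 mg for the expressed members of 14 annotated gene groups, 1 point per model. Filled grey points are models that the study listed from this pair, open orange points models it listed only for other pairs, and black bars the median of each group. ACC oxidases and photosynthesis models lie left of 0, and most proteases, histones and tubulins right of it. The open points lie within the 2-fold lines except 2 cytochrome P450 models, largely because models past 2-fold here were mostly listed from this pair.

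Flavonoid and anthocyanin enzymes, some of which make the pigments of the black coat, had 33 expressed members of 43, with 1 higher and 15 lower in CD. The keywords of this group also cover isoflavonoid and general phenylpropanoid enzymes, so its counts are not those of pigment enzymes alone. Their median was -0.69, and -0.07 in the 17 members listed only for other pairs. Glyma02g05450.1, a flavanone hydroxylase and the most abundant member, had 47.6 RPKM in CD and 99.4 RPKM in CS, after 691 RPKM in CD and 946 RPKM in CS at 50–100 mg. Glyma14g00870.1, a deoxychalcone synthase, had 7.54 RPKM in CD and 26.6 RPKM in CS, and Glyma12g32650.1, an anthocyanin acyltransferase, had 6.29 RPKM in CD and 25 RPKM in CS. The acyltransferase stood the other way round in Harosoy, with 48.9 RPKM in HD and 0.0779 RPKM in HS.

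Photosynthesis models had 20 expressed members of 20, with none higher and 17 lower in CD and a median of -0.99. The range was narrow, from -1.25 to -0.63, and the 3 members listed only for other pairs had a median of -0.66. Glyma03g37800.1, a Calvin cycle protein, had 18.3 RPKM in CD and 44.9 RPKM in CS, and Glyma19g06370.1, a small subunit of the carboxylase Rubisco, had 9.89 RPKM in CD and 22.8 RPKM in CS. The summed level of the 16 green tissue markers was 128 RPKM in CD and 259 RPKM in CS at this stage, against 95.9 RPKM in HD and 101 RPKM in HS, and 583 to 1455 RPKM in the earlier libraries. In HS, all 17 lower models fell between 50–100 and 400–500 mg, with a median log2 change of -2.66.

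Seed storage proteins are made in the embryo, but the keywords of this group also took in the chromosome 15 models and a bark storage protein, Glyma07g09220.1. Of its 23 annotated models, 16 were expressed in these seed coats. The 3 chromosome 15 models above were the higher members, and 8 were lower. The median of the group was -0.91, and that of its 5 members listed only for other pairs was on the other side of equality, at 0.44. The beta-conglycinin model Glyma10g39150.1 had 124 RPKM in CD and 315 RPKM in CS, the albumin model Glyma13g36400.1 had 55.9 RPKM in CD and 208 RPKM in CS, and the glycinin model Glyma19g34770.1 had 34.9 RPKM in CD and 88.7 RPKM in CS. The albumin model was also the lower one in the defective isolines in the 5 other pairs, with 28.3 RPKM in HD and 186 RPKM in HS at 400–500 mg. Cotyledon and embryo markers were chosen by annotation text, and whether each is confined to the embryo was not tested. The summed level of all 19 such markers outside the chromosome 15 models was 528 RPKM in CD and 1108 RPKM in CS, with 7 of the 12 expressed ones lower and none higher, and 2 at 0 in CD and none at 0 in CS. It was 924 RPKM in HD and 1554 RPKM in HS at the same stage. At the earlier stages the sum was carried by 1 model annotated as seed storage, Glyma01g32750.1, which stood at 848 to 4468 RPKM there and had 31.0 RPKM in CD and 71.9 RPKM in CS at 400–500 mg. Without that model, left out after its values were seen, the sums at the 3 stages were 377, 476 and 497 RPKM in CD and 411, 529 and 1036 RPKM in CS, and 207, 656 and 909 RPKM in HD and 244, 1179 and 1513 RPKM in HS. On these 18 markers the 4 lines had their highest sums at 400–500 mg, and CD the lowest of that stage. That order depends on the markers left out, and the chromosome 15 models were also left out with their values known. Over all 22 markers, the sums at 400–500 mg were 2025 RPKM in CD and 1110 RPKM in CS, and 925 RPKM in HD and 1557 RPKM in HS. CD was then the highest of that stage. The part of embryo tissue in these differences was not tested.

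The amino acid and nitrogen group, which holds permeases and enzymes of amide synthesis, had 15 expressed members of 18, with 3 higher and 7 lower and a median of -0.71. Its 5 members listed only for other pairs had a median of -0.06. The amino acid permease Glyma04g38640.1 had 4.34 RPKM in CD and 40.1 RPKM in CS, 9.23-fold lower (8.35 to 10.2). It was the lower one in the defective isoline of every pair: the 6 defective libraries lay between 1.60 and 7.09 RPKM and the 6 standard libraries between 12.2 and 62.5 RPKM, without overlap. Another permease, Glyma08g44930.1, had 4.25 RPKM in CD and 23.3 RPKM in CS but 5.37 RPKM in HD and 0.816 RPKM in HS. The higher members were asparagine synthetases, among them Glyma14g37440.1 with 13.9 RPKM in CD and 5.6 RPKM in CS, and a glutamine exporter relative, Glyma17g07450.1. MtN3 family models, related to sugar exporters, had 4 expressed members of 6, all lower in CD and all listed from this pair. Of these, Glyma05g38340.1 had 60.1 RPKM in CD and 142 RPKM in CS.

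Proteinase inhibitors had 19 expressed members of 31, with 6 higher, the chromosome 15 models included, and 7 lower, and a median of -0.27 in the 6 listed only for other pairs. Bowman-Birk inhibitors moved both ways, with Glyma14g26400.1 at 15.6 RPKM in CD and 5.10 RPKM in CS and Glyma16g33400.1 at 9.82 RPKM in CD and 29.4 RPKM in CS. Models with beta-glucosidase in their annotation, which includes glucan endo-1,3-beta-glucosidases (glucanases), had 18 expressed members of 32, with 5 higher and 8 lower. Their median was -0.13, against 0.56 in the 5 members listed only for other pairs. Glyma09g30920.1, the most abundant, had 218 RPKM in CD and 104 RPKM in CS, and a basic glucanase, Glyma15g15200.1, had 7.30 RPKM in CD and 36.2 RPKM in CS. Cytochrome P450 models had 2 higher and 8 lower of 26 expressed (-0.21 in the 18 listed only for other pairs), and peroxidases none higher and 3 lower of 16 (0.53 in 13 such models). Metallothionein and other metal-binding models had 4 higher and 2 lower of 14 (0.47 in 8), and Glyma17g34870.1, a metallothionein, had 138 RPKM in CD and 52.1 RPKM in CS.

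Called loci were not spread evenly over the chromosomes. Between 0.8% and 2.95% of the expressed loci of each chromosome were lower in CD, except chromosome 16 with 5.14%, against 2.06% over all. In windows of 20 consecutive expressed loci, at least 5 differed the same way in 3 places. The first ran from Glyma08g11460 to Glyma08g11810 on chromosome 8, where 10 of 24 loci were higher in CD. Interleaved with them are chalcone synthase genes, whose cluster there is known as the site of the I locus of seed coat pigment. In this stretch Glyma08g11580.1, a dnaJ chaperone, had 16.5, 20.9 and 27.5 RPKM in CD at the 3 stages, against 0.229, 0.187 and 0.313 RPKM in CS, and 12.2 to 27.8 RPKM in the Harosoy libraries. Glyma08g11570.1, a cytochrome P450, had 6.34, 9.35 and 18.1 RPKM in CD against 0.139, 1.20 and 0.0419 RPKM in CS, and 1.85 to 13.3 RPKM in Harosoy. For these models CS stood below all 9 libraries of the other lines. The most abundant model there, Glyma08g11480.1, related to an S-adenosylhomocysteine hydrolase of Arabidopsis, had 584 RPKM in CD and 227 RPKM in CS, and 561 RPKM in CD and 315 RPKM in CS at 50–100 mg. Of the 10 loci, 4 were also past 2-fold higher in CD at 50–100 mg and 7 at 100–200 mg. In Harosoy at 400–500 mg their median log2 ratio was -0.65, and 3 were past 2-fold lower in HD. The 6 chalcone synthase models of the stretch, which share hits, lay within 2-fold here, such as Glyma08g11620.1 with 21.7 RPKM in CD and 22.9 RPKM in CS.

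The second place, Glyma16g30210 to Glyma16g31800 on chromosome 16, held 42 expressed loci, of which 20 were lower in CD, all annotated as disease resistance or leucine-rich repeat proteins, receptors of pathogen recognition. The 20 had a median of 2.33 RPKM in CD and 7.59 RPKM in CS and a median log2 ratio of -1.42. In the Clark libraries of 50–100 mg they were low in CD too, with medians of 0.439 RPKM in CD and 4.23 RPKM in CS, but at 100–200 mg they had 2.16 RPKM in CD and 1.91 RPKM in CS. In Harosoy all 20 were past 2-fold lower in HD at 100–200 mg (2.67 RPKM in HD, 8.33 in HS), and none was at the other stages. At 400–500 mg all 20 were still lower in HD, with log2 ratios of -0.78 to -0.65 (5.06 RPKM in HD, 8.92 in HS). At 50–100 mg 38 of the 42 loci were under 5 RPKM in both Harosoy libraries and could not be called. Their ratios were nearly alike and the models share hits, so they are not 20 separate measurements. Glyma16g30750.1 departed most, with 0.150 RPKM in CD and 5.65 RPKM in CS. Other models between them did not follow: Glyma16g30550.1 had 41.5 RPKM in CD and 60.6 RPKM in CS, and 122 RPKM in HD and 8.03 RPKM in HS. These 20 loci make up most of the 22 lower members, of 35 expressed, in the disease resistance group, whose 13 members listed only for other pairs had a median of 0.21. Outside chromosome 16 that group held Glyma13g26650.1, with 0.0321, 0.0179 and 0.0910 RPKM in CD at the 3 stages against 4.17, 5.23 and 9.09 RPKM in CS. There CD was the line that stood apart, since the Harosoy libraries had 4.10 to 10.6 RPKM. The third place, Glyma03g14200 to Glyma03g15800 on chromosome 3, held 5 lower loci among 16, the multicopper oxidase Glyma03g15800.1 among them, and 3 of the 5 were past 2-fold higher in HD at 400–500 mg.

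**Figure D4:**
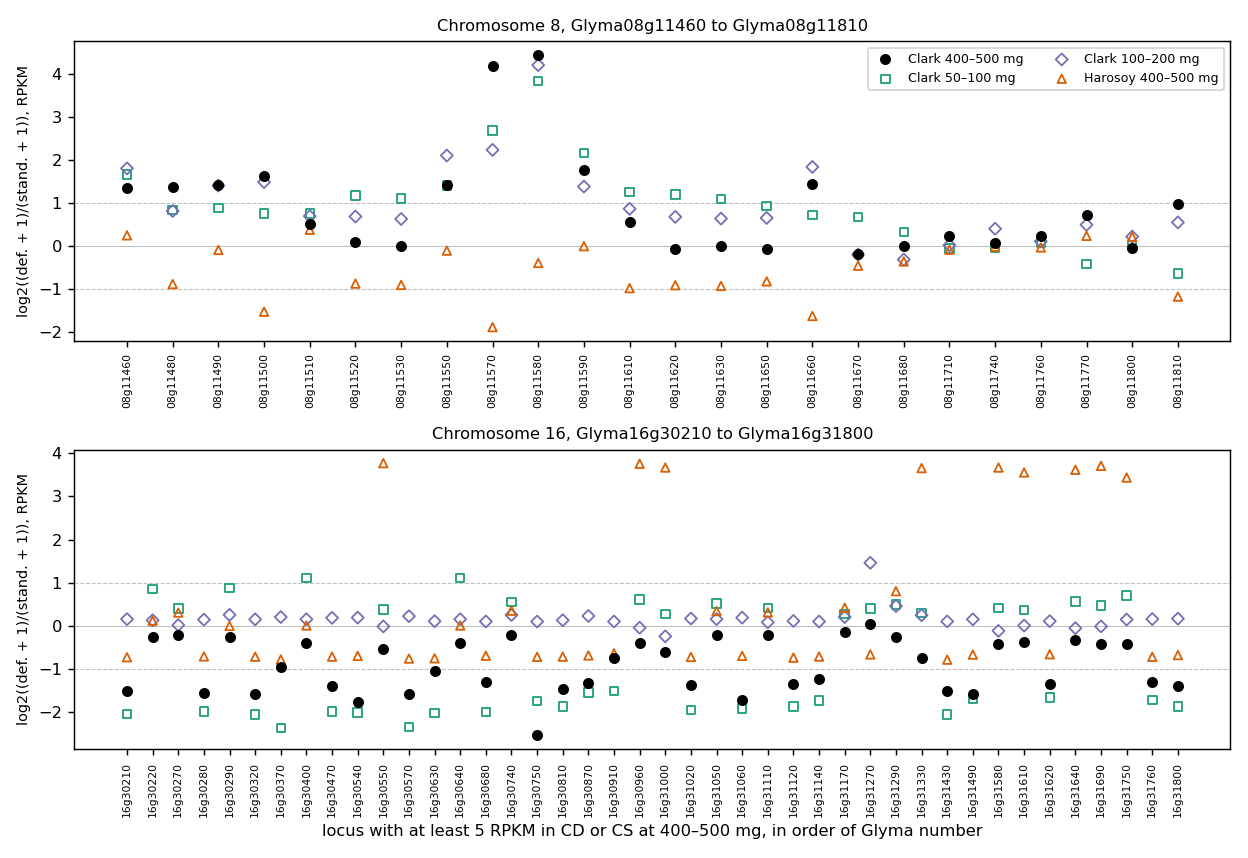
Log2 ratio of defective over standard RPKM, 1 RPKM added to both, for the consecutive expressed loci of the stretches on chromosome 8 (top) and chromosome 16 (bottom). Filled circles are Clark at 400–500 mg, open squares and diamonds the earlier Clark pairs, and triangles Harosoy at 400–500 mg, with dashed lines at 2-fold. On chromosome 8 the largest ratios recur at all 3 Clark stages, and on chromosome 16 the lower loci recur at 50–100 mg but not at 100–200 mg.

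The other stages of Clark share no library with this pair. Of the 268 higher models, 77 (28.7%) were past 2-fold higher in CD at 100–200 mg as well, against 1.49% of all expressed models, and their median log2 ratio there was 0.55. At 50–100 mg 34 (12.7%) were past 2-fold higher, against 1.98% of all, and the median was 0.10. Of the 470 lower models, 35 (7.45%) were past 2-fold lower at 100–200 mg, against 1.20% of all, and 20 (4.26%) at 50–100 mg, against 0.513%, whereas 42 (8.94%) were past 2-fold higher there. With at least 5 RPKM in a library each time, 11 higher and 12 lower models were past 2-fold the same way at all 3 Clark stages. The call in this pair is part of the condition, so no other model among the 23959 expressed ones met it. The lower models were not all separate loci: Glyma10g35870.1 and Glyma10g35870.2 shared a locus, as did Glyma10g36600.1 and Glyma10g36600.2, and Glyma13g26960.1 and Glyma13g26960.2. Glyma10g35840.1, also lower, had nearly the log2 ratio of Glyma10g35870.1 (-1.40 and -1.42). Among the higher models, Glyma02g27050.1, Glyma03g06720.1, Glyma04g16080.1, Glyma05g05920.1 and Glyma06g38690.1, all of unknown function, had alike levels. These were 5.45 to 6.87 RPKM in CD and 1.77 to 2.57 RPKM in CS. Whether such models share hits was not tested. Beside those of chromosome 8 and the cysteine proteinase inhibitor, the higher ones included an ethylene-responsive factor, Glyma09g36840.1 (15.7 RPKM in CD, 3.81 in CS). The lower ones included the amino acid permease Glyma04g38640.1, the beta-conglycinin and glycinin models, the auxin down-regulated protein ADR12 (Glyma10g35870.1), with 167 RPKM in CD and 449 RPKM in CS, and the clock protein GIGANTEA (Glyma10g36600.1), with 27.9 RPKM in CD and 66.5 RPKM in CS. GIGANTEA had 14.3 and 12.3 RPKM in CD and 34.4 and 32.4 RPKM in CS at the earlier stages, and did not differ past 2-fold in any Harosoy pair.

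In the Harosoy pair of the same weight, which shares no library with the Clark pair either, the called models leaned the other way. Of the 268 higher models, 56 (20.9%) were past 2-fold lower in HD and 9 (3.36%) past 2-fold higher, against 4.16% and 3.53% of all expressed models. Their median log2 ratio was -0.48 in Harosoy, against -0.09 for all. Of the 470 lower models, 113 (24.0%) were past 2-fold higher in HD and 27 (5.74%) past 2-fold lower, with a median of 0.14. The Harosoy pair of 100–200 mg leaned the same way as Clark at 400–500 mg. There 65 (24.3%) of the higher models were past 2-fold higher in HD, against 2.21% of all expressed models, and 38 (14.2%) past 2-fold lower, against 7.31% of all, with a median of 0.37. Of the lower models, 105 (22.3%) were past 2-fold lower in HD and 22 (4.68%) past 2-fold higher, with a median of -0.44, against -0.09 for all. In the Harosoy pair of 50–100 mg, 2 (0.746%) of the higher models were past 2-fold higher and none lower. Of the lower models, 13 (2.77%) were past 2-fold lower and 2 (0.426%) higher. All expressed models gave 0.0584% higher and 0.209% lower there. At 400–500 mg, the 27 models lower in both backgrounds lay in 17 loci, led by the permease Glyma04g38640.1 and the second set of ACC oxidases. The 9 models higher in both lay in 7 loci. Among them were a senescence-associated protein, Glyma05g09990.1 (274 RPKM in CD and 122 in CS, 1775 RPKM in HD and 540.4 in HS), the asparagine synthetase Glyma14g37440.1 (7.07 RPKM in HD, 1.54 in HS), and an expansin, Glyma01g06030.1 (7.57 RPKM in CD and 3.51 in CS, 9.88 RPKM in HD and 0.679 in HS).

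Several of the groups described above stood differently in Harosoy at 400–500 mg. Of all expressed models, 61.0% had a negative log2 ratio in that pair and 38.9% a positive one. Past 2-fold were 4.16% lower and 3.53% higher in HD. Of the 16 proteases higher in CD, 15 had a negative log2 ratio in Harosoy and 10 were past 2-fold lower in HD: Glyma06g02500.1 had 66.3 RPKM in HD and 171 RPKM in HS. Of the 15 flavonoid models lower in CD, 12 had a positive ratio in Harosoy, 2 of them past 2-fold. Of the 17 photosynthesis models lower in CD, 14 were also below 0 in Harosoy, none past 2-fold. The NAC models lower in CD, 6 in all, had 4 that were past 2-fold higher in HD, such as Glyma16g04740.1 with 3.43 RPKM in CD and 15.1 RPKM in CS, and 24.6 RPKM in HD and 1.46 RPKM in HS.

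**Figure D5:**
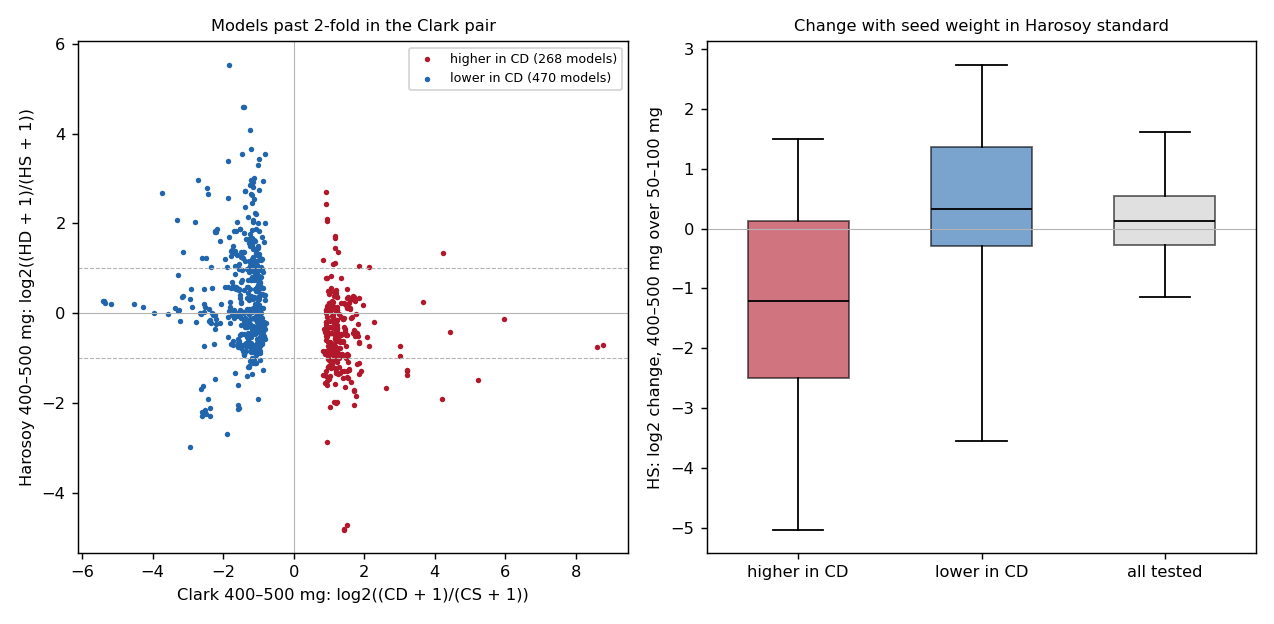
Left, log2 ratio in Harosoy at 400–500 mg (HD over HS, vertical axis) against that in Clark (CD over CS, horizontal axis) for the 268 models higher in CD (red) and the 470 lower (blue), with dashed lines at 2-fold in Harosoy. Right, log2 change of the same models and of all expressed models in HS between 50–100 and 400–500 mg, with the median, quartiles (box) and 5th to 95th percentiles (whiskers). The models higher in CD have a median change of -1.21 in HS, against 0.12 for all.

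Change with seed weight was read in HS, a line outside the pair whose 50–100 and 400–500 mg libraries were made on the same platform. Of the models higher in CD, 52.6% fell at least 2-fold in HS between these weights, against 6.22% of all expressed models, and their median log2 change was -1.21, against 0.12 for all. Of the models lower in CD, 35.7% rose at least 2-fold, against 12.1% of all, and 17.4% fell at least 2-fold, against 6.22% of all, with a median of 0.33. Between 100–200 and 400–500 mg in HS, weights that were sequenced on different platforms, 53.0% of the higher and 26.8% of the lower models fell at least 2-fold, against 6.92% of all. The medians there were -1.15 for the higher models, -0.28 for the lower and 0.06 for all. In CS between 50–100 and 100–200 mg the medians were -0.14 for the higher models, 0.13 for the lower and 0.07 for all, also across platforms, and platform and weight cannot be told apart in either step. A model below the 5 RPKM minimum in both Clark libraries could not enter either set, so these shares belong to expressed models only. Whether seeds of equal weight in CD and CS were of equal age was not measured.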

How the data were processed

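Seed coat RNA of CD and CS at 400–500 mg was sequenced on the Illumina HiSeq platform, 1 library each. The authors aligned the reads with Bowtie to 78773 Glyma cDNA models, with at most 3 mismatches and 25 alignments for a read. They deposited RPKM values, which scale hits by model length and by a total for each library. The paper names mapped reads as that total. The totals recovered here, 47.5 M in CD and 77.2 M in CS, exceed the raw reads it gives for these libraries. They are therefore not counts of reads and are called hits here. RPKM were used as deposited. Samples were grouped by their labels.

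Ratios of CD over CS were called at 2-fold or more with at least 5 RPKM in either library. Log2 ratios had 1 RPKM added to both values, which understates the change of weak models. Whole hits were recovered from the steps of the RPKM values, within 0.05 of a whole number, for 71434 models, and 7 expressed models gave none. The recovery was checked on simulated data. With 1 library a side no p-value was computed. Exact conditional intervals (95%) and a floor of 3 hits cover counting error only.

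The models, the 33 annotation lists and the alternatives were chosen with earlier results of these data known. Annotation text came from the study's supplementary tables, of which 1 was held only in part, and sequences or coordinates of the models were not used here. Named models are those with the 12 largest log2 ratios (1 model per locus) and the 6 largest RPKM differences each way, the 10 most abundant, up to 4 per list and direction with the most abundant member, models named in the study's text, members of the windows, those furthest the same or opposite way in Harosoy at 400–500 mg, and those next to the threshold. The alternatives were other minimum levels, folds, pseudocounts, scalings and window sizes, 1 model per locus, the chromosome 13 block kept, and lists without models chosen on this pair. The computations were made in Python 3.11.15 (pandas 2.3.3, numpy 2.4.6, scipy 1.17.1, numba 0.67.0), and figures with matplotlib 3.10.9.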

Additional observations from a re-analysis of the deposited data

Results flagged for a closer look

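The 2 backgrounds moved in opposite directions for part of the models at 400–500 mg. Of the models at least 2-fold higher in CD, 56 were at least 2-fold lower in HD, and of those lower in CD, 113 were at least 2-fold higher in HD. With 1 library per line these differences between backgrounds were not tested. The models with the largest smaller change among them were the following. The cytochrome P450 Glyma08g11570.1 had a log2 ratio of 4.20 in Clark and -1.90 in Harosoy. The serine carboxypeptidases Glyma18g47820.1 and Glyma09g38500.1 had 1.77 and 1.71 in Clark, and -1.84 and -2.03 in Harosoy. Glyma13g38560.1, of unknown function, had 1.71 in Clark and -1.73 in Harosoy. In the other direction, a ubiquitin ligase model, Glyma14g22700.1, had -2.71 in Clark and 2.98 in Harosoy, and Glyma08g22530.1, of unknown function, had -3.72 in Clark and 2.68 in Harosoy. The neighbouring Kunitz inhibitors Glyma08g45590.1 and Glyma08g45560.1 had -2.47 and -2.44 in Clark, and 2.79 and 2.67 in Harosoy.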

How the results depend on the processing

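With 1 library on each side, counting error is the only error known, and each of these ratios rests on a single CD and a single CS library. The 268 higher and 470 lower models became 762 and 1315 at a minimum of 1 RPKM, 153 and 263 at 10 RPKM, 4574 and 7413 with no minimum, 966 and 1238 at 1.5-fold, and 90 and 191 at 3-fold. They stayed within 1.5 times under 3 rescalings (267 to 287 higher, 450 to 473 lower), with 1 model per locus (220 and 366), with 1 RPKM added to both values (211 and 385), with the chromosome 13 block kept (304 and 470) and when the counting interval had to lie wholly past 2-fold (197 and 340). Windows of 40 loci gave 7 places and windows of 10 loci 2, against 3 with 20 loci. Where a model also had to reach 5 RPKM in the other pair, the share of lower models on the same side in Clark at 50–100 mg was 43.6% (36.0% without this condition), in Harosoy at 50–100 mg 50.0% (61.7%), and that of higher models in Harosoy at 400–500 mg 17.8% (25.7%).

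List medians changed sign when only models listed for other pairs were kept: to -0.44 for proline-rich and extensin models (8 models), 0.44 for seed storage proteins (5), 0.21 for disease resistance (13), 0.56 for beta-glucosidases (5), 0.45 for MYB (1), -0.33 for bHLH (2), 0.13 for light and clock (3) and -0.59 for transposon related models (2). The median of light and clock models was also 0.13 with 1 model per locus (5). The models chosen on this pair were left out by construction there, so nearly all of the kept ones lay within 2-fold. These changes of sign therefore cannot decide a group's direction. The sign of a log2 ratio cannot change under another pseudocount, and centring shifted the ratios by only 0.002. The unchanged signs of the named models are therefore no check on them. The choice of 1 model per locus for the other pairs and for development was added after the data were seen. No paired analysis was possible because each group had a single library and no test was made.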

Other observations

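Further annotated groups had members on both sides, read against the same background of 1.12% higher and 1.96% lower and with the same limit that the study chose most of the called members on this pair. Auxin related models had 5 higher and 9 lower of 48 expressed, gibberellin related models 3 higher and 2 lower of 18, and jasmonate related models 3 higher and 4 lower of 11. The higher gibberellin models were gibberellin-regulated proteins, among them Glyma09g37290.1 with 40.7 RPKM in CD and 13.5 RPKM in CS, and the lower ones included a gibberellin oxidase, Glyma02g15370.1, with 27.9 RPKM in CD and 65.2 RPKM in CS. The lower jasmonate models included the TIFY repressors Glyma01g41290.1 (7.43 RPKM in CD, 23.6 in CS) and Glyma11g04130.1 (2.26 RPKM in CD, 7.94 in CS) and a lipoxygenase, Glyma20g11680.1 (26.3 RPKM in CD, 70.1 in CS).

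Of the transcription factor groups, NAC models had 2 higher and 6 lower of 16 expressed, WRKY models 2 higher and 4 lower of 13, MYB models none higher and 4 lower of 5, and bHLH models 4 higher and 2 lower of 8. The MYB model Glyma20g35180.1 had 0.621 RPKM in CD and 8.24 RPKM in CS, and the bHLH model Glyma01g02390.1 had 22.5 RPKM in CD and 6.18 RPKM in CS. Heat shock and chaperone models had 3 higher and 3 lower of 22, lipid transfer models 3 and 3 of 11, and light and clock models 2 and 4 of 7. Late embryogenesis and dehydrin models had 1 higher and 4 lower of 14: the dehydrin Glyma19g29210.1 had 164 RPKM in CD and 75.6 RPKM in CS, and a caleosin of oil bodies, Glyma09g22310.1, had 48.7 RPKM in CD and 139 RPKM in CS. Transposon related models had 5 higher and none lower of 7, all weak, such as Glyma18g10810.1 with 8.06 RPKM in CD and 1.52 RPKM in CS.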
